A study of Homo sapiens with 12 samples.

Results

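The long intergenic noncoding RNAs (lincRNAs) expressed in NCM460 cells were examined. Of the 58735 genes in the table, 7629 carried the biotype lincRNA, 5835 of these were at least 500 bases long, and 203 of those had a mean of at least 1 FPKM (fragments per kilobase of transcript, scaled per library) over 12 libraries. The genes were thus chosen by their mean FPKM over all libraries, so the level itself is a description and not a finding. LINC00239 and FLJ42351 lay just inside the threshold, at 1.006 and 1.004 FPKM, and LINC02298 and AC090023.2 just outside, at 0.999 and 0.996 FPKM. Of the 203 lincRNAs, 155 had a mean of at least 1 FPKM in each of the 4 groups, and 48 had a lower mean in at least 1 group. All 203 also passed the filter of the test, a mean FPKM of at least 0.1, which 18079 genes passed.

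LincRNAs are transcripts of their own genes without a long reading frame, many of them spliced and polyadenylated much like mRNAs. Some work as the RNA they are, as scaffolds or decoys for proteins, others are the carriers from whose introns or exons small nucleolar RNAs (snoRNAs) or microRNAs are cut, and for others the act of transcription near a coding gene is what is known. In epithelial cells several are known as NF-κB or interferon response genes, and several are known from carcinomas.

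NCM460 is a human cell line labelled as normal colonic epithelium, and each of the 4 groups held 3 libraries of poly(A)-selected RNA. Wild-type (WT) cells were kept in medium, given TNF-α, or given TNF-α together with 5-OH-TMT, a quaternary bufotenine derivative that the labels call Bufotenidine. The fourth group carried the HTRA2 knockdown, made with siRNA, and also received TNF-α. HTRA2 is a mitochondrial serine protease that the study pursued as the target of 5-OH-TMT, which is the question behind the comparisons. The study set its knockdown against a control siRNA, but no library here carries that label. Whether the TNF-α libraries served as that control is not stated. The labels name no siRNA for the TNF-α libraries, so any effect of transfection cannot be told apart from that of the knockdown, and they do not say whether the 3 libraries of a group came from separate cultures or which siRNA each knockdown library had received. The p-values therefore measure the spread between these libraries, which may be technical. In RNA from whole cultures, fewer cells of a type and less RNA per cell cannot be told apart.

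HTRA2 measured 15.4, 14.0 and 14.2 FPKM with TNF-α and 7.44, 7.18 and 7.22 FPKM in the knockdown, a log2 fold change of -0.98 (SE 0.09, adjusted p = 2.77e-05). This and all later tests are limma's, on log2(FPKM + 0.1), with p-values adjusted over all genes tested by Benjamini-Hochberg. The libraries held 31008429 to 37624399 reads on genes, of which 0.206 to 0.265% lay on the 203 lincRNAs. The second knockdown library stood apart in its share of mitochondrial reads, 2.95% against 3.69 to 4.68% in the other 11, and its counts differed most from those of its own group. Counts of calls in the knockdown are given with and without it. General epithelial markers summed to 2118 to 2689 FPKM, whereas none of 10 colonic markers reached a mean of 1 FPKM and CDX2, LGR5 and CA1 had no read in any library. By contrast, 5 of 6 squamous or basal markers did, led by KRT5 at a mean of 139 FPKM, and their sum ran from 178 to 216 FPKM in medium, 180 to 195 with TNF-α, 204 to 209 with 5-OH-TMT and 230 to 275 in the knockdown. Of 3 endothelial markers CDH5 alone had a mean of at least 1 FPKM, and their sum ran from 0.491 to 0.597 FPKM in medium, 1.42 to 1.57 with TNF-α, 1.77 to 2.01 with 5-OH-TMT and 2.21 to 3.62 in the knockdown. Of 6 mesenchymal markers VIM and COL1A1 did, and their sum ran from 5.25 to 6.09, 5.09 to 6.23, 4.23 to 4.57 and 4.18 to 4.35 FPKM in the same order, with no read of DCN in any library. The part of these shifts in the lincRNA results was not tested. Immune markers summed to at most 0.740 FPKM, and CD3E had no read in any library.

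The lincRNAs were shorter and scarcer than coding genes. Their median length was 1523 bases, against 5028.5 for protein-coding genes with a mean of at least 1 FPKM, and their median level was 2.01 FPKM against 7.08. In the lincRNAs 100 of 203 lay between 1 and 2 FPKM and 20 reached 10 FPKM. The median lincRNA was covered by 115.6 reads per library, and 83 had at least 100 reads in each library. The lowest count of any lincRNA in any library was 3 reads, in AL121658.1. The spread between replicate libraries was also wider: the median SD on the log2 scale was 0.18 to 0.22 per group for the lincRNAs and 0.08 to 0.14 for the coding genes.

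Their position in the genome was taken from GENCODE 29 (GRCh38). A single exon made up 56 of the 203 genes (27.6%). Of the lincRNAs, 35 overlapped a protein-coding gene despite their biotype, 27 of them on the opposite strand. A further 82 lay divergent to their nearest coding gene, 46 of these with starts within 1 kb. The median gap to the nearest coding gene was 3924 bases, and LINC00944 lay farthest away, 1067409 bases from TMEM132B. Exon bases were shared with another gene by 59 lincRNAs, by 31 of them over at least 10% of their length. The library kit does not mark strand, so for these genes reads of the lincRNA and of its partner cannot be told apart by strand. Words of 50 bases occurred in another gene for at least 10% of the sequence in 43 lincRNAs and for at least 50% in 8.

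Expression was concentrated in few genes, and the 10 most abundant held 36.0% of the summed FPKM. NORAD, which binds Pumilio proteins and is known for its part in genome stability, came first at chr20:36045622-36050960 (minus strand) with a mean of 82.0 FPKM. It measured 89.6, 74.2 and 87.7 FPKM in medium, 90.4, 79.4 and 92.3 with TNF-α, 71.9, 72.2 and 76.0 with 5-OH-TMT and 77.6, 98.9 and 74.0 in the knockdown, and its groups overlapped in every comparison but that of 5-OH-TMT with TNF-α, where all 3 treated libraries were lower (log2 fold change -0.25, SE 0.11, adjusted p = 0.234). The Pumilio element TGTANATA occurred 15 times in its 5339 bases, or 2.81 per kilobase, against 0.128 per kilobase over the other 202 lincRNAs, although the highest count in another lincRNA was 16. The stretch below, chr20:36049713-36049832 on the minus strand (GRCh38), is shown because it carries 2 of these elements, in capitals.
NORAD: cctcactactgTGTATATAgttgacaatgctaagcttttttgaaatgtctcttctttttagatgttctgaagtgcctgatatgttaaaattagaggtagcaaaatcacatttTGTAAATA

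FP236383.3 ranked next at a mean of 46.0 FPKM, but 100% of its 50-base words also occur in FP236383.2, another lincRNA, so how reads were split between this pair is uncertain. In medium it measured 50.6, 78.1 and 70.6 FPKM and with TNF-α 26.4, 42.0 and 32.1 FPKM, and the groups did not overlap, yet the adjusted p was 0.104 (log2 fold change -0.99, SE 0.30). Its copy FP236383.2, chosen after its values were seen, measured 2.13, 21.9 and 5.23 FPKM in the knockdown libraries, the second standing far above the others. Against TNF-α its log2 fold change was 1.95 with that library and 1.06 without it. Neither passed the test in any comparison. The others of the 10 were UCA1 (37.1 FPKM), AL161431.1 (30.8), URB1-AS1 (28.5), LINC00958 (26.2), LNCAROD (23.7), SNHG8 (23.02), AL035661.1 (18.5) and AC245041.1 (17.0). Of these 10, AC245041.1 passed the test with TNF-α, and UCA1, AL161431.1, URB1-AS1, LNCAROD, SNHG8 and AL035661.1 passed it in the knockdown, all 6 of them lower. LINC00958, a lincRNA of squamous and bladder carcinomas, measured 26.9, 26.7 and 25.5 FPKM with TNF-α and 27.4, 28.2 and 29.8 in the knockdown, where the groups did not overlap but the test was not passed (log2 fold change 0.11, adjusted p = 0.226).

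**Figure D1:**
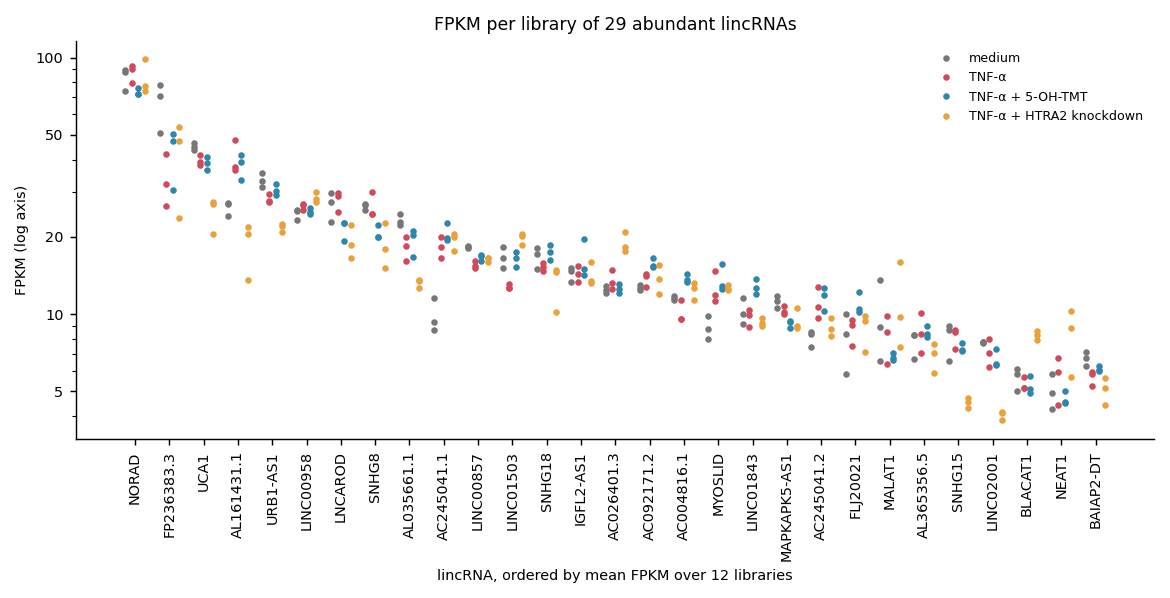
FPKM of 29 of the 30 most abundant lincRNAs in each of the 12 libraries, on a log axis, with the genes ordered by their mean; every point is 1 library and the colours are the 4 groups. The knockdown libraries of UCA1, AL161431.1, URB1-AS1 and AL035661.1 lie below those of the other groups, and AC245041.1 in medium lies below the 9 libraries with TNF-α.

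TNF-α against medium asked how the lincRNAs respond to the cytokine. Higher levels were called for 6 lincRNAs and lower levels for 8 at an adjusted p under 0.05, or 2.96% and 3.94% of the 203, where of all 18079 genes tested 3.22% were called higher and 0.885% lower, 4.1% in all. Of protein-coding genes with a mean of at least 1 FPKM, 4.9% were higher and 1.07% lower. By the thresholds the study used for differential expression, 2-fold or more and p no higher than 0.05 before adjustment, 3 lincRNAs were higher (background 1.76%) and 3 lower (0.968%). The groups did not overlap for 21 higher (background 11.1%) and 29 lower lincRNAs (background 8.74%). The median log2 fold change of the lincRNAs was -0.04, and 91 of 203 lay above 0. Among the 155 lincRNAs with at least 1 FPKM in each group, 10 were called.

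The largest rise belonged to U62317.1, a gene named only by its clone, at chr22:50542305-50542906 on the minus strand, 2984 bases from KLHDC7B. It measured 0.240, 0.311 and 0.509 FPKM in medium and 1.99, 1.44 and 2.67 FPKM with TNF-α. All 3 treated libraries lay above the 3 in medium, a log2 fold change of 2.24 (SE 0.32, adjusted p = 0.00128). It shares 42.7% of its exon bases with U62317.4, so its reads could belong to either. The neighbour KLHDC7B, a kelch-domain gene, went from 0.619, 0.577 and 0.769 to 2.49, 2.86 and 3.27 FPKM (log2 fold change 1.98, adjusted p = 1.18e-05). LINC00944, the most isolated of the lincRNAs, went from 0.685, 0.740 and 0.479 to 2.07, 2.20 and 2.06 FPKM. This was a log2 fold change of 1.61 (SE 0.17, adjusted p = 0.000156) without any overlap between the groups.

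PSMB8-AS1 lies in the antigen-processing cluster of the major histocompatibility complex, antisense to the immunoproteasome gene PSMB8 and overlapping TAP1, which carries peptides into the endoplasmic reticulum. Its level was 0.769, 0.687 and 0.628 FPKM in medium, 1.48, 1.61 and 1.04 with TNF-α, 1.59, 1.77 and 1.31 with 5-OH-TMT and 2.44, 2.23 and 1.91 in the knockdown. Every library with TNF-α was above those in medium, and every knockdown library was above those with TNF-α alone. The log2 fold change was 0.88 with TNF-α (SE 0.17, adjusted p = 0.0107) and, from there, a further 0.65 in the knockdown (SE 0.17, adjusted p = 0.0215). TAP1 measured 12.7, 14.7 and 11.9 FPKM in medium, 29.4, 29.4 and 28.3 with TNF-α and 61.6, 52.7 and 61.9 in the knockdown, rising by 1.15 and then 1.01 on the log2 scale (adjusted p = 1.88e-05 and 4.45e-05). Since 31.7% of the exon bases of PSMB8-AS1 are also in PSMB8, and strand was not marked, the part of PSMB8 reads in this rise was not tested.

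The promoter of PSMB8-AS1 is shown because it is the only one among the lincRNAs called with TNF-α that matched either motif searched. Promoter windows of 300 bases (250 before to 50 after the RefSeq start, GRCh38.p14) were found for 78 of the 203 lincRNAs, 4 of which were among the 14 called with TNF-α. The core of the interferon-stimulated response element (ISRE), searched on both strands, occurred in 5 of the 78 (6.41%) and in 3.57% of all 35116 windows, and the 5 were PSMB8-AS1, HCG11, FOXD2-AS1, PICART1 and MIR222HG, chosen by the match alone. The κB consensus, the site bound by NF-κB, searched likewise, occurred in 5 of 78 (6.41%) and in 5.91% of all windows, namely in URB1-AS1, LINC01843, SNHG4, LINC01842 and LINC00265. None of these 5 passed the test with TNF-α. A match describes letters and is not a bound site. In the window chr6:32843836-32844135 (plus strand), the capitals mark the ISRE match, which begins 44 bases before the start.
PSMB8-AS1: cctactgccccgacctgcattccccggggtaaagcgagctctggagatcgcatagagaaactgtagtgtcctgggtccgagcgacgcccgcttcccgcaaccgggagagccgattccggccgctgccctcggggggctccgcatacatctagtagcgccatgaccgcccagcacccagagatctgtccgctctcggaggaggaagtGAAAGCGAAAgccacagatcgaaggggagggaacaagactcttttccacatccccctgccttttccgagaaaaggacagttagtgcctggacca

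The other risers were AC245041.1, LINC00623 and MYOSLID. AC245041.1 went from 11.6, 9.28 and 8.64 to 20.03, 18.3 and 16.5 FPKM (log2 fold change 0.90, adjusted p = 0.000596). LINC00623 went from 2.57, 2.73 and 2.95 to 5.03, 4.62 and 4.85 FPKM (log2 fold change 0.79, adjusted p = 0.000426), but 64.6% of its 50-base words occur in other genes. MYOSLID, known from smooth muscle, rose by 0.50 (adjusted p = 0.0284), beside its distant neighbour KLF7, a transcription factor, which rose by 0.57 on the same log2 scale (adjusted p = 0.00486). Of the 50-base words of MYOSLID, 24.7% occur in AC009226.1. Nearest coding genes of LINC00944, AC245041.1 and LINC00623 lay under the filter.

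Among the 8 lower lincRNAs, AC100860.1 fell furthest, from 7.01, 5.78 and 5.54 to 2.53, 1.73 and 3.29 FPKM (log2 fold change -1.29, SE 0.26, adjusted p = 0.0125). It measured 5.05, 4.45 and 4.03 FPKM with 5-OH-TMT, between the other groups and overlapping neither, at an adjusted p of 0.122 against TNF-α. LINC00239 followed at a log2 fold change of -1.20 (adjusted p = 0.0409), from 8 to 38 reads per library, then SMILR at -0.79, a lincRNA known from inflamed smooth muscle. SMILR and AC108136.1 (-0.74) share ZHX2 as their nearest coding gene, and its log2 fold change was 0.17 (adjusted p = 0.555). The smaller falls were LINC02506 (-0.68), AC104024.2 (-0.45), LINC01503 (-0.38) and LINC00857 (-0.24). For LINC00857 the groups lay far apart for so small a change, at 18.3, 18.4 and 18.2 FPKM in medium and 15.1, 16.0 and 15.4 FPKM with TNF-α. No neighbour of the 8 passed the test. These calls depended on the fit: with only the 2 groups in it 4 of the 14 were called, all of them higher, namely U62317.1, LINC00944, AC245041.1 and LINC00623, and these 4 passed under every setting tried. Without TNF-α library 1 or TNF-α library 2, 6 lincRNAs were called, and without medium library 3, 8. In each fit that left out 1 library, 2 to 3 of the 8 lower calls and 4 to 6 of the 6 higher calls were kept.

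**Figure D2:**
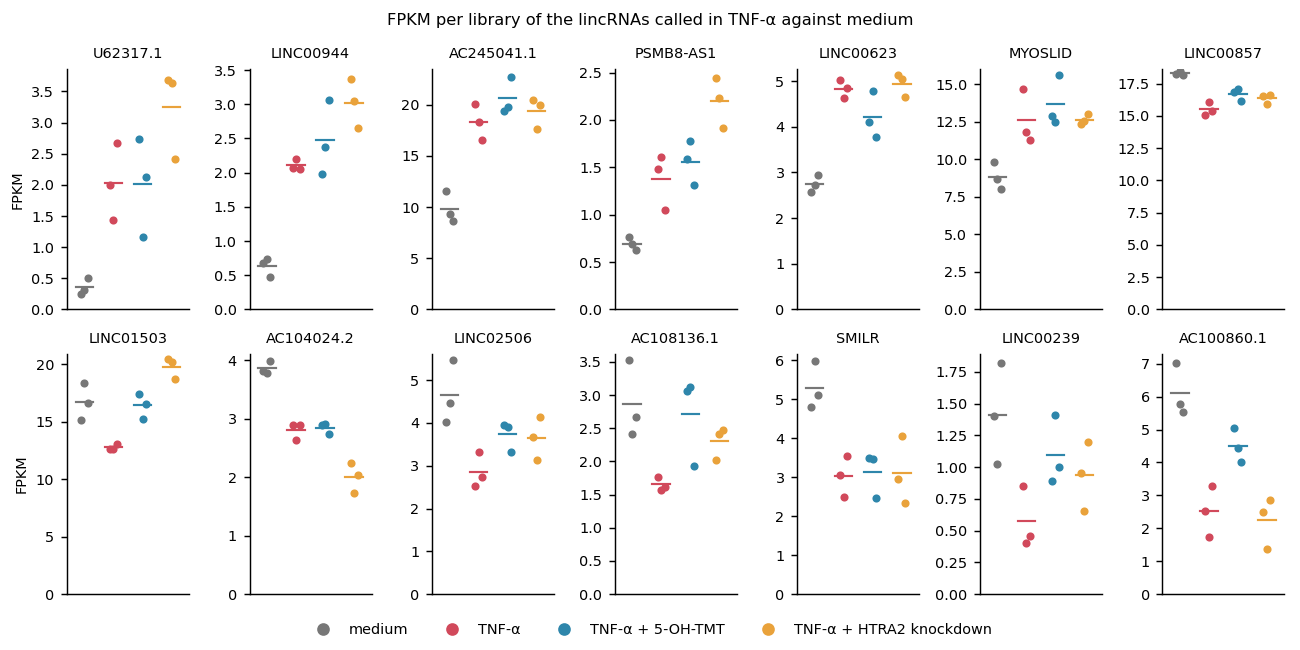
FPKM of the 14 lincRNAs called in TNF-α against medium, 6 higher and 8 lower, with 1 point per library, a line at each group mean, and axes that start at 0. For all 14 the medium points do not overlap the TNF-α points, and PSMB8-AS1 and LINC01503 are higher again in the knockdown.

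5-OH-TMT added to TNF-α left no lincRNA past the test. At an adjusted p under 0.05 limma called 0 of 203 lincRNAs, where it called 7 of all 18079 genes (0.0387%, with 0.0332% higher and 0.00553% lower). At an unadjusted p under 0.05 there were 38 lincRNAs, or 18.7%, against 20.1% of all genes, and 26 were higher and 26 lower without overlap (background 16.3% and 15.5%). No lincRNA met the study's thresholds (background 0.686% higher and 0.813% lower), and the log2 fold changes of the lincRNAs ran from -0.83 to 0.88. Other settings called 3, 7 and 2 lincRNAs: with genes under a mean of 1 FPKM left out, with only the 2 groups in the fit, and with limma's voom on recovered reads. Calls over all genes grew in these settings as well. They were 78 higher and 49 lower of 11185 genes, 473 and 438 of 18079, and 204 and 160 of 18079, in the same order.

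The lincRNAs nearest to the threshold are given here, chosen after their values were seen. OLMALINC, a lincRNA 8678 bases from SCD and on its strand, measured 1.35, 1.12 and 0.988 FPKM with TNF-α and 2.54, 1.98 and 2.09 FPKM with 5-OH-TMT. All 3 treated libraries were higher, a log2 fold change of 0.88 (95% interval 0.51 to 1.26, adjusted p = 0.0768). SCD, the desaturase that makes monounsaturated fatty acids, measured 65.0, 58.4 and 44.2 and 105, 101.4 and 100.8 FPKM in the same libraries and did pass the test (log2 fold change 0.89, adjusted p = 0.0435). AP001362.2, whose start lies 8 bases from that of RELA on the opposite strand, had a log2 fold change of 0.67 (0.42 to 0.93, adjusted p = 0.0630). AC004816.1 (0.44, adjusted p = 0.0721), LINC01503 (0.36, 0.0870) and SNHG4 (-0.47, 0.0922) came next. The 3 called with the stricter filter were AC004816.1, AP001362.2 and OLMALINC. The exact permutation test of 3 libraries against 3 cannot go below p = 0.1.

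HTRA2 knockdown against TNF-α gave 50 called lincRNAs, most of them lower. At an adjusted p under 0.05, 17 were higher and 33 lower, or 8.37% and 16.3%, where of all genes tested 9.35% were higher and 8.08% lower, 17.4% in all. Protein-coding genes with a mean of at least 1 FPKM had 13.0% higher and 12.1% lower. The study's thresholds were met by 2 higher (background 3.08%) and 5 lower lincRNAs (1.14%). The groups did not overlap for 32 higher (17.5% of all genes) and 47 lower lincRNAs (16.4%). The median log2 fold change was -0.10, with 82 of 203 above 0, whereas that of the coding genes was -0.02. Without the second knockdown library 16 were higher and 34 lower, and among the 155 lincRNAs expressed in each group 12 were higher and 26 lower. This comparison, that of 5-OH-TMT and that of TNF-α share the TNF-α libraries.

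**Figure D3:**
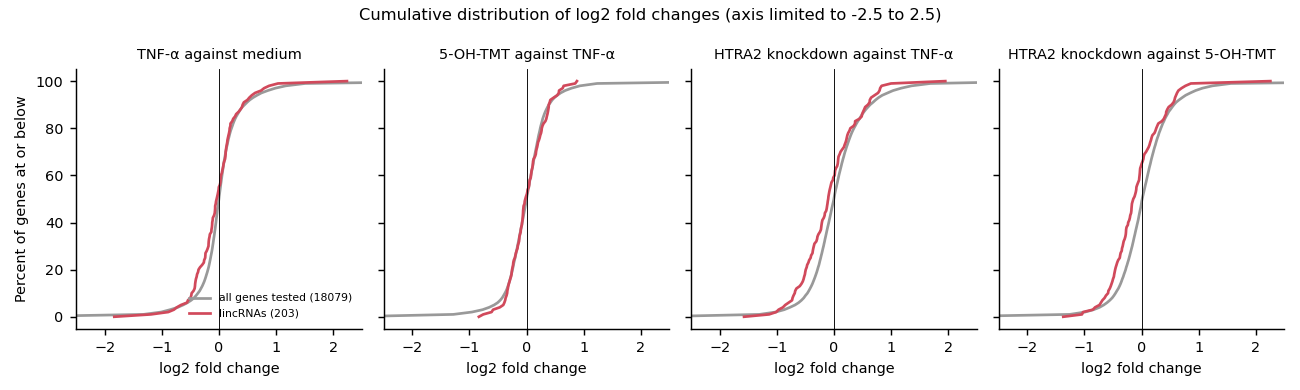
Percent of genes at or below each log2 fold change (x axis, -2.5 to 2.5) for all 18079 genes tested and for the 203 lincRNAs, in the 4 comparisons. In both comparisons of the knockdown the lincRNA curve lies to the left of the curve of all genes over most of its lower range, with medians of -0.10 and -0.15.

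The lower lincRNAs included some of the most abundant. UCA1 at chr19:15828206-15836326, known from bladder and colorectal carcinoma, measured 41.5, 39.3 and 38.3 FPKM with TNF-α and 27.4, 20.6 and 27.0 FPKM in the knockdown. Every knockdown library was below every TNF-α library (log2 fold change -0.68, SE 0.10, adjusted p = 0.000639). AL161431.1 at chr13:109269634-109278512 measured 26.9, 24.2 and 27.0 FPKM in medium, 37.5, 47.8 and 36.6 with TNF-α and 20.5, 13.6 and 21.9 in the knockdown. The knockdown libraries thus lay below medium as well, with a log2 fold change against TNF-α of -1.14 (SE 0.16, adjusted p = 0.000639), while its log2 fold change with TNF-α, 0.63, missed the threshold (adjusted p = 0.0542). LNCAROD, a regulator of DKK1, and URB1-AS1, divergent to the ribosome biogenesis gene URB1, changed by -0.55 and -0.37 on the log2 scale. AL035661.1 changed by -0.45 (adjusted p = 0.00821).

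The 10 largest falls had levels of a few FPKM except for AL161431.1. AL121658.1, divergent to the zinc transporter SLC30A6 by 84 bases, led with a log2 fold change of -1.58 (SE 0.42), from 1.30, 1.08 and 1.77 to 0.740, 0.545 and 0.116 FPKM. It rests on 3 to 47 reads per library, and its neighbour was at -0.31 (adjusted p = 0.0995). AC100810.3 (-1.15), GS1-124K5.4 (-1.11) and AC025181.2 (-0.99) followed, the second of which is LINC03011 in RefSeq. MANCR, known from mitotic breast cancer cells, was lower at -0.94 (adjusted p = 0.00393), as was AKR1E2, the nearest coding gene, an aldo-keto reductase (-0.72, adjusted p = 0.00199).

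Several of the lower lincRNAs are host genes of snoRNAs. These genes carry snoRNAs, which guide the chemical modification of ribosomal RNA, in their introns or exons. By annotation 8 of the 203 held a snoRNA on their own strand, and 5 of the 8 were called lower and 0 higher in the knockdown. Of all genes tested 8.08% were called lower and 9.35% higher. SNHG15 (holding SNORA9) went from 7.34, 8.64 and 8.53 to 4.30, 4.56 and 4.72 FPKM (log2 fold change -0.83, SE 0.11, adjusted p = 0.000430). LINC02001 (SNORD7), called SNHG30 in RefSeq, went from 7.09, 6.25 and 8.02 to 3.85, 4.11 and 4.14 FPKM (log2 fold change -0.80, adjusted p = 0.000161). Both had 3 knockdown libraries below all 9 others. SNHG9 (SNORA78), divergent to the ribosomal protein gene RPS2, was at -1.01 (adjusted p = 0.0243), from 9 to 34 reads per library, with RPS2 at -0.33 (adjusted p = 0.0434). SNHG4 (SNORA74D and SNORA74A) was at -0.71 (adjusted p = 0.00108) and SNHG8 (SNORA24) at -0.52 (adjusted p = 0.0155). Their nearest coding genes SIL1 and PRSS12 moved the other way, with log2 fold changes of 0.34 and 0.51 (adjusted p = 0.00793 and 0.00485). SNHG18 (-0.23), EPB41L4A-AS1 (0.09) and AC078923.1 (0.06, chosen after its values were seen) did not pass. A list of 30 snoRNA host genes held 6 of the lincRNAs, with a median of -0.61. The 4 of them called lower are among the 5 above and are not separate support. Of 20 further genes on that list that were tested but are annotated under another biotype or are shorter or scarcer, 11 were lower and 0 higher.

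Of the 17 rises in the knockdown, 1 exceeded a log2 fold change of 1. This was AC098487.1, within and on the strand of SLC39A8, a zinc and manganese transporter. It measured 0.934, 0.647 and 1.60 FPKM with TNF-α and 2.15, 2.26 and 1.94 FPKM in the knockdown (log2 fold change 1.02, SE 0.29, adjusted p = 0.0333). That call held in 7 of 16 alternative settings, with log2 fold changes from 0.62 to 1.33 and adjusted p-values up to 0.133, and was lost without any 1 of the knockdown libraries or without TNF-α library 1 or 2. SLC39A8 itself rose by 0.47 (adjusted p = 0.00752), and 19.9% of the exon bases of the lincRNA are its own. LINC01629 rose by 0.98 (adjusted p = 0.00608) with IRF2BPL, a transcriptional regulator, at 0.41 (adjusted p = 0.0162). BISPR, the interferon-stimulated partner of the antiviral gene BST2, went from 2.23, 2.21 and 2.97 to 4.27, 4.84 and 4.23 FPKM. Its groups did not overlap (log2 fold change 0.83, SE 0.13, adjusted p = 0.00132), and MVB12A, which it overlaps on the same strand, was at 0.08 (adjusted p = 0.643). TP53TG1, a p53 target divergent to CROT by 166 bases, rose by 0.80 (adjusted p = 0.0108) with CROT at -0.04 (adjusted p = 0.842).

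OLMALINC and SCD both rose in the knockdown. OLMALINC measured 2.27, 1.89 and 1.97 FPKM, a log2 fold change of 0.78 against TNF-α (adjusted p = 0.00836), and SCD measured 151, 156 and 144 FPKM (1.44, adjusted p = 2.73e-05). The remaining larger rises were AC022034.1 (0.82), SAMD12-AS1 (0.80), AL365181.2 (0.77), LINC02577 (0.73) and PSMB8-AS1 (0.65). SAMD12, which SAMD12-AS1 overlaps on the opposite strand, was at 0.50 (adjusted p = 0.0131), and BCAN, divergent to AL365181.2, at -0.21 (adjusted p = 0.550).

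**Figure D4:**
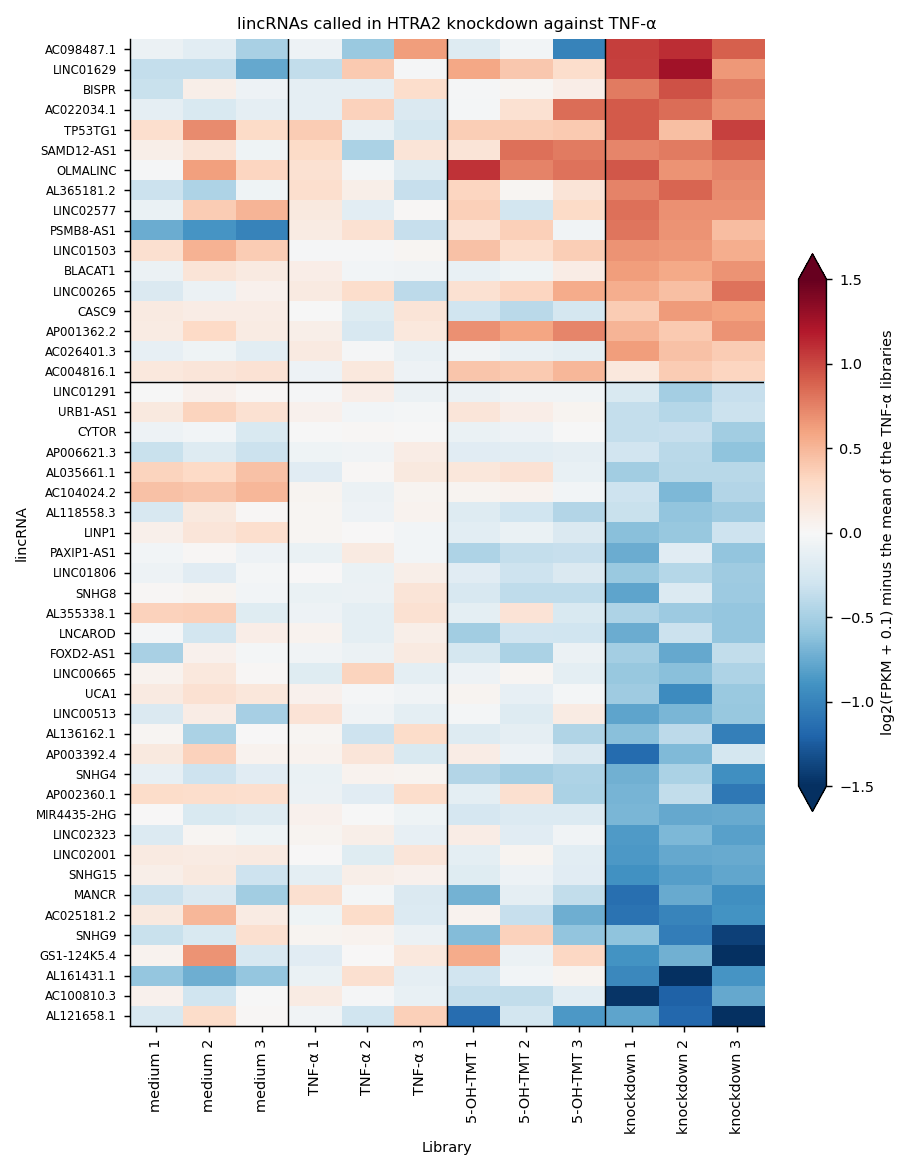
Shown are 49 of the 50 lincRNAs called in HTRA2 knockdown against TNF-α, 17 higher above the line and 32 lower below it, in 12 libraries; colour is log2(FPKM + 0.1) minus the mean of the 3 TNF-α libraries, with red higher and blue lower, limited to -1.5 and 1.5. The knockdown columns set the order, and in the 5-OH-TMT columns OLMALINC and AP001362.2 are red as well.

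MicroRNA host lincRNAs carry the precursors of microRNAs, and 7 of the 203 held a mature microRNA on their own strand in the RefSeq table (GRCh38.p14). The libraries measured the host transcripts and not the microRNAs. The sequences are shown to group the hosts by seed (bases 2 to 8, in capitals): CYTOR (chr2:87629764-87629785, plus strand) and MIR4435-2HG (chr2:111321061-111321082, minus strand) carry the same microRNA, and 2 microRNAs of MIR222HG, at chrX:45746180-45746202 and chrX:45747036-45747056 (minus strand), share a seed. MIR4713HG, named after its values were seen, lies on the plus strand with miR-4713 at chr15:51242200-51242221 and chr15:51242233-51242254, and the others on the minus strand hold theirs at chr17:1713914-1713935 (MIR22HG), chr11:568112-568133 (MIR210HG) and chrX:134546371-134546393 (MIR503HG).
hsa-miR-4435: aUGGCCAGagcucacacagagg
hsa-miR-221-3p: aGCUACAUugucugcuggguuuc
hsa-miR-222-3p: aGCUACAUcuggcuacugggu
hsa-miR-22-3p: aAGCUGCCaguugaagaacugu
hsa-miR-210-3p: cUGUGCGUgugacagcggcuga
hsa-miR-503-5p: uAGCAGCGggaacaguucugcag

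The hosts of miR-4435 both fell in the knockdown. MIR4435-2HG went from 3.12, 2.96 and 2.83 to 1.81, 1.71 and 1.71 FPKM (log2 fold change -0.74, SE 0.09, adjusted p = 0.000228), and CYTOR from 1.24, 1.26 and 1.23 to 0.948, 0.958 and 0.837 FPKM (-0.41, adjusted p = 0.0260). Since 27.8% and 24.9% of their 50-base words occur in other genes, for the most part in each other, they are not independent. MIR22HG was at 2.64, 1.55 and 1.99 FPKM in medium, 3.07, 2.98 and 3.13 with TNF-α and 2.13, 2.20 and 2.16 in the knockdown, without passing in either comparison (adjusted p = 0.0632 and 0.0515). MIR210HG (adjusted p = 0.135 with TNF-α), MIR222HG (0.230) and MIR503HG (0.550) did not pass either. Of the list of microRNA hosts, 5 genes were among the 203, and 0 were called with TNF-α or with 5-OH-TMT, and 1 was lower in the knockdown. Against 5-OH-TMT 3 of the 5 were lower in the knockdown, MIR4435-2HG (-0.51, adjusted p = 0.00360), MIR22HG (-0.53, 0.0396) and MIR210HG (-0.33, 0.0498), of which MIR22HG held in 8 and MIR210HG in 4 of 16 alternative settings. The median log2 fold change of the 5 was 0.32 with TNF-α and -0.37 in the knockdown, where the medians of all genes tested were -0.00 in both.

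Lists of known lincRNAs held few of the 203 each, and no member of any list was called with 5-OH-TMT. Interferon-linked genes were 3 of the 203: PSMB8-AS1 was called with TNF-α, and PSMB8-AS1 and BISPR in the knockdown, with a median of 0.65, while NEAT1 was at 0.51 (adjusted p = 0.112). Of the 6 genes linked to NF-κB and innate immunity, 0 were called with TNF-α (median 0.16), and MIR4435-2HG and CYTOR were lower in the knockdown. Of 3 further genes on that list tested under another biotype, named after their values were seen, LUCAT1 (0.85), NKILA (0.50) and LINC01137 (0.97), all 3 were higher with TNF-α (adjusted p = 0.00490, 0.00502 and 0.000246). Nuclear-body and abundant lincRNAs held 4, of which CYTOR was called in the knockdown. MALAT1, of nuclear speckles, varied within groups, with 8.55, 6.40 and 9.86 FPKM under TNF-α and 9.75, 16.0 and 7.45 in the knockdown, the second library highest. Its log2 fold change against TNF-α was 0.37 with that library and 0.07 without it. NEAT1, the scaffold of paraspeckles, had the same high library, at 8.83, 10.3 and 5.71 FPKM, and its log2 fold change was 0.51 with and 0.33 without it. Genes linked to p53 and stress were 5, with TP53TG1 higher and SNHG15 lower in the knockdown. Of the 6 cancer- and colon-linked genes BLACAT1 (0.62, adjusted p = 0.000734) and CASC9 (0.54, adjusted p = 0.00436) were higher and UCA1 lower, whereas PVT1 (-0.23, adjusted p = 0.159) did not pass. BLACAT1 is a lincRNA by the biotype used here but protein-coding in RefSeq, the only 1 of the 110 lincRNAs matched there.

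The knockdown was also compared with 5-OH-TMT directly, since a call in one comparison and not in the other does not show that the treatments differ. Of the 203, 9 were higher in the knockdown and 26 lower, or 4.43% and 12.8%, beside 7.85% and 7.43% of all genes (15.3% in all) and 11.4% and 11.4% of the coding genes. The study's thresholds were met by 2 higher and 5 lower lincRNAs (background 2.18% and 1.0%), and the groups did not overlap for 23 higher and 50 lower (18.2% and 17.6%). At an unadjusted p under 0.05 there were 76 lincRNAs (37.4%), against 29.7% of all genes and 40.7% of the coding genes. The median was -0.15. Without the second knockdown library 23 were called, 21 of them among the 35, and without the second 5-OH-TMT library 23, of which 22. UCA1 (-0.64, adjusted p = 0.00150), AL161431.1 (-1.04, 0.00180), SNHG15 (-0.69, 0.00233) and LINC02001 (-0.71, 0.000592) were lower in the knockdown than with 5-OH-TMT. GS1-124K5.4 had the largest fall (-1.37, adjusted p = 0.00715), and C6orf99 (-1.03), AC100860.1 (-1.03), AC100810.3 (-0.85), SFTA1P (-0.85), AC012306.2 (-0.79) and LINC02323 (-0.74) were further falls. The call of SFTA1P held in 7 of 16 alternative settings, those of C6orf99 and AC100860.1 in 12, AC012306.2 in 14 and AC100810.3 in 15. Those of GS1-124K5.4 and LINC02323 held in all 16. Of the 50-base words of AC012306.2, 71.8% occur in other genes, 60.9% in AL135925.1. AC098487.1 (1.42), CASC9 (0.86), BISPR (0.79), NEAT1 (0.77) and BLACAT1 (0.65) were the largest rises. The call of NEAT1 held in 7 of 16 alternative settings and was lost without the second knockdown library (log2 fold change 0.59, adjusted p = 0.101), while the other 4 rises held in all 16. For OLMALINC the difference between the treatments was -0.10 with an interval of -0.48 to 0.27, which includes 0, and for PSMB8-AS1 it was 0.47 (0.10 to 0.85, adjusted p = 0.0844).

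Across all 4 comparisons 72 lincRNAs were called at least once and 131 never. With TNF-α and in the knockdown 3 were called: PSMB8-AS1 higher in both, AC104024.2 lower in both and LINC01503 lower with TNF-α but higher in the knockdown. LINC01503, a lincRNA of squamous carcinoma, measured 15.1, 18.3 and 16.6 FPKM in medium, 12.6, 12.6 and 13.1 with TNF-α, 17.4, 15.3 and 16.6 with 5-OH-TMT and 20.5, 20.1 and 18.7 in the knockdown. Its TNF-α libraries were the lowest 3 of the 12 and its knockdown libraries the highest 3. AC104024.2 stepped down instead, from 3.82, 3.78 and 3.99 in medium to 2.89, 2.63 and 2.89 with TNF-α and 2.24, 1.72 and 2.04 in the knockdown. Both comparisons use the same TNF-α libraries, so their values are not independent.

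The nearest protein-coding gene passed the filter for 171 of the 203 lincRNAs. With TNF-α 58.5% of these pairs had log2 fold changes of the same sign (Pearson 0.40, Spearman 0.29), and 55.6% in the knockdown (0.27 and 0.21). With 5-OH-TMT it was 56.1% (0.27 and 0.20). For 7549 pairs of a coding gene and its nearest coding gene, the shares were 55.7%, 53.3% and 66.9%, with Pearson values of 0.17, 0.15 and 0.37. The points of a pair share libraries and, for 31 pairs that overlap, possibly reads, so these values describe and do not test. In the knockdown, 42 called lincRNAs had a tested neighbour, which was called for 16 and in the same direction for 13, or 31.0% of the 42 (16.8% for coding pairs). With TNF-α it was 3 of 11, namely U62317.1, PSMB8-AS1 and MYOSLID, all 3 in the same direction as the neighbour, or 27.3% (8.07% for coding pairs). In the knockdown against 5-OH-TMT, 29 called lincRNAs had a tested neighbour, which was called in the same direction for 5, or 17.2% (18.5% for coding pairs), and 51.5% of the 171 pairs had the same sign (59.3% for coding pairs). BLACAT1 and LEMD1, which overlap on the same strand, rose together (0.62 and 1.12), and 11.6% of the exon bases of BLACAT1 are also in LEMD1. In RefSeq BLACAT1 is itself protein-coding.

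**Figure D5:**
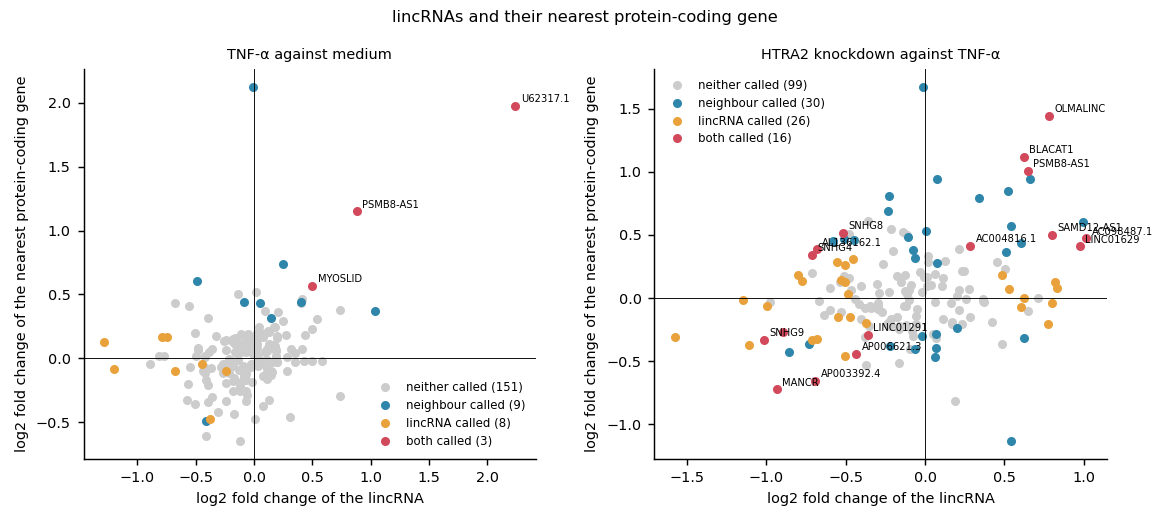
Log2 fold change of each lincRNA (x axis) and of its nearest protein-coding gene (y axis) for 171 pairs, with TNF-α against medium on the left and HTRA2 knockdown against TNF-α on the right; colours mark which of the pair was called. Named are the 3 pairs on the left and 15 of the 16 on the right in which both were called, and in the knockdown SNHG4, SNHG8 and AL136162.1 lie opposite in sign to their neighbours.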

How the data were processed

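The authors prepared poly(A)-selected RNA of NCM460 cells and deposited their gene values as FPKM, in 1 table that also gives gene lengths. The submitters' processing notes name CASAVA 1.8, HISAT2 2.0.4, HTSeq 0.9.1 and hg38, without roles, and the strand setting of the counting is not given in the sources used here. All 58735 coordinates equalled those of GENCODE 29. Because the file holds FPKM, reads were recovered from the steps of the values (100% whole within 0.05) and used only for depth and 1 alternative. Reads on genes came to 0.949 to 1.03 of the library size that these values imply, so that size was not the plain count of reads on genes.

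In R 4.3.3, limma 3.58.1 fitted 1 mean per group to log2(FPKM + 0.1) of the 18079 genes whose mean FPKM reached 0.1 (eBayes with trend, 8 residual degrees of freedom, two-sided, Benjamini-Hochberg over all genes). Fold changes are on this scale, which understates changes of low genes. A call is an adjusted p under 0.05. The fit was tested on simulated data. Tables and figures were made with Python 3.11.15, pandas 2.3.3, numpy 2.4.6, scipy 1.17.1 and matplotlib 3.10.9. Nearest coding genes were taken by the gap between genes. Overlapping genes came first and ties were settled by gene identifier, so another coding gene may overlap the same lincRNA. The lincRNAs, lists and tests were chosen with earlier results of these data known. Named are the 10 most abundant lincRNAs, per comparison up to 10 rises and 10 falls that were called without overlap, their nearest coding genes, the 2 lincRNAs on each side of the threshold, up to 4 genes of each list by level (here sometimes more, chosen after their values were seen), and HTRA2. A lincRNA that the rule covers is counted but not reported here. Alternatives were other pseudocounts, filters, scalings, models, rules for members, a replicate block and each library left out.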

Additional observations from a re-analysis of the deposited data

How the results depend on the processing

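Called were 14 lincRNAs for TNF-α, 0 for 5-OH-TMT, 50 for the knockdown and 35 for the knockdown against 5-OH-TMT. No named lincRNA reversed under any alternative, and 4, 25 and 17 of the 14, 50 and 35 kept their call under every one. A fit to the 2 groups compared called 4 for TNF-α, 7 for 5-OH-TMT and 21 for the knockdown against 5-OH-TMT. Over all 18079 genes that fit called 333 higher and 59 lower, 473 and 438, and 1073 and 857, in the same order. eBayes without trend gave 9 with TNF-α. A filter at a mean of 1 FPKM and voom on recovered reads gave 3 and 2 with 5-OH-TMT. Over all genes these 2 settings called 78 higher and 49 lower, and 204 and 160. Members with a mean of at least 2 FPKM (103 lincRNAs) gave 31 in the knockdown. Sets added after seeing the data gave 6 with TNF-α and 32 in the knockdown among 83 lincRNAs with at least 100 reads in each library, and 9 and 32 among 152 that share under 10% of exon bases and of 50-base words with other genes; these 4 counts, and that at 2 FPKM, fall because fewer lincRNAs enter. Leaving out 1 library gave 6 to 11 for TNF-α, 0 to 0 for 5-OH-TMT, 38 to 50 for the knockdown and 23 to 33 in the knockdown against 5-OH-TMT. Otherwise the cause was not tested. Median-of-ratios rescaling could not change a call, since its factor was 1 in all 12 libraries, and quantile normalization moved the last comparison to 10 higher and 37 lower from 9 and 26. With the replicate number as a block, 11, 0, 45 and 28 lincRNAs were called, of which 9, 0, 44 and 25 were among those above; the numbers are shared labels only, as correlations of same-numbered libraries ran from -0.37 to 0.15. The share of neighbour pairs with the same sign stayed between 51.4% and 61.4% when pairs over 10 kb apart or overlapping pairs were left out. At the median SE of 0.19 on the log2 scale, small changes of the lincRNAs could not be resolved. The part of depth in this spread was not tested.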

Other observations

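Among the snoRNA host genes outside the lincRNA rule, chosen here after their values were seen, the knockdown values against TNF-α were as follows. SNHG3 had a log2 fold change of -0.89 (limma, adjusted p = 2.95e-05), DANCR of -0.88 (adjusted p = 0.000211), SNHG1 of -0.78 (adjusted p = 0.000141) and SNHG5, the most abundant, of -0.59 (adjusted p = 0.00484). SNHG19 is a lincRNA shorter than 500 bases and was at -0.86 (adjusted p = 0.00138). GAS5 (-0.22), SNHG6 (-0.11) and SNHG16 (-0.08) did not pass the test (adjusted p = 0.166, 0.377 and 0.470). With 5-OH-TMT none of the 20 further hosts tested was called.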
